A study of Homo sapiens with 9 samples.

Results

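The mitochondrial DNA of human cells carries 37 genes, and all 37 were found among the 64253 genes of the count tables by the symbol prefix MT-. They comprise 13 protein-coding genes, 2 ribosomal RNA (rRNA) genes and 22 transfer RNA (tRNA) genes on chromosome M. RNA was sequenced from IMR90 cells, a human lung fibroblast line, in 3 groups of 3 libraries lettered a, b and c. Controls carried the pLKO.1 vector, which the sample labels call empty and the treatment protocol calls a GFP vector. In the shRRM2 group, RRM2, a subunit of ribonucleotide reductase, was knocked down by a short hairpin RNA, and a vector infection followed. The shRRM2/shp16 group had the same RRM2 hairpin and, from a second infection 24 hours later, a hairpin that targets p16, a product of CDKN2A that restrains the cell cycle. All cells were grown at 2% oxygen, used at population doubling 30 and selected with 3 ug/mL puromycin for 7 days. The labels name 1 hairpin per target and do not say whether the 3 libraries of a group came from separate cultures, so p-values measure the spread between libraries, which may be technical.

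Mitochondrial DNA is transcribed from both strands as long precursors, from which the tRNAs are cut out and so release most of the messenger and ribosomal RNAs between them. The proteins are core subunits of the respiratory chain complexes I, III and IV and of the ATP synthase (complex V), while the rRNAs and tRNAs serve the mitochondrion's own ribosomes. Copying of the mitochondrial genome draws on deoxynucleotides, which ribonucleotide reductase makes, and RRM2B is the subunit that serves cells outside S phase.

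Each library held between 15770895 and 24873291 reads counted to genes. RRM2 averaged 485 ± 5.23 CPM (reads scaled to a common library size) in controls, 62.1 ± 1.86 in shRRM2 and 177 ± 3.00 in shRRM2/shp16 (mean ± SD, n = 3). Its transcript was thus less reduced in the last group, and whether the RRM2 hairpin acted less there was not tested. CDKN2A stood at 6.02 ± 0.113, 6.50 ± 0.464 and 4.28 ± 0.321 CPM in the same order (n = 3). Uniquely aligned reads that fell in no annotated gene made up 17.6% to 18.9% in controls, 27.7% to 28.8% in shRRM2 and 23.5% to 24.4% in shRRM2/shp16. The 10 fibroblast markers (collagens, THY1, PDGFRB and others) were all detected, and summed to 29282 to 30204 CPM in controls, 28093 to 28920 in shRRM2 and 24784 to 25367 in shRRM2/shp16. Single fibroblast markers went both ways in the edgeR test used below (adjusted p under 0.05). In shRRM2/shp16 against control 4 of the 10 were higher and 5 lower, beside 30.0% and 32.4% of all tested genes. Their part in the results below was not tested. Endothelial markers summed to 2.56 to 3.35, 2.48 to 3.75 and 5.23 to 5.38 CPM in the same order, and epithelial markers to at most 2.69, with KRT5, KRT14, SFTPC and CDH5 at or under 3 counts.

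The genes lie almost end to end, and some share bases, which bears on where a read is counted. MT-ATP8 and MT-ATP6, both subunits of the ATP synthase, overlap by 46 bases at chrM:8527-8572 on the plus strand. MT-ND4L and MT-ND4, both of complex I, overlap by 7 bases at chrM:10760-10766 on the same strand. The overlaps are shown because a read within the shared bases cannot be assigned to 1 gene by position alone. Both sequences are from the GENCODE release 29 transcripts on GRCh38, 5′ to 3′, with the shared bases in capitals. MT-ATP8 spans chrM:8366-8572, 207 bases, and the junction shown spans chrM:10737-10789.
MT-ATP8: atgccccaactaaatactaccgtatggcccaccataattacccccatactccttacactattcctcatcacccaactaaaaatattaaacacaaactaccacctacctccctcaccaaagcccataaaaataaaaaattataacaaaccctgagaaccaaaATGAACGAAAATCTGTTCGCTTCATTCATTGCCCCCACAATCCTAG
MT-ND4L/MT-ND4 junction: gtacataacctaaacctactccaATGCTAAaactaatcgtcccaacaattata

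Nearly all mitochondrial reads came from the 13 protein-coding genes, which gathered between 242033 and 434489 counts per library, against 17 to 263 for the rRNA genes and 194 to 372 for the tRNA genes. The kit depleted ribosomal RNA, so the rRNA counts are what depletion left. The 37 genes together took 1.75%, 1.59% and 1.77% of the gene counts in control libraries a, b and c. They took 1.54%, 1.52% and 1.58% in shRRM2, and 1.65%, 1.65% and 1.72% in shRRM2/shp16. Every shRRM2 library lay below every control and every shRRM2/shp16 library, by −0.14 and, from the other side, 0.12 on the log2 scale (exact two-sided permutation p = 0.1 for each, the smallest that 3 against 3 can give, and 0.24 after Benjamini-Hochberg adjustment over 12 ratio tests). The shRRM2/shp16 libraries lay within the control range, with a difference of −0.02 (exact p = 0.8). The 95% Wilson interval was 1.744% to 1.754% for control a and 1.510% to 1.521% for shRRM2 b. Over all 9 libraries the lowest lower bound was 1.51% and the highest upper bound 1.78%. These intervals cover counting error only. The share is relative to all gene counts, so it does not show whether the amount of mitochondrial RNA per cell changed. In bulk RNA, a lower share within cells and fewer cells with a high share cannot be told apart either. The share of reads outside genes moved with the same groups. Unique alignments not assigned to 1 gene made up 5.07% to 6.02% in controls, 3.74% to 4.73% in shRRM2 and 4.96% to 5.67% in shRRM2/shp16. Non-unique alignments, tallied apart from the gene counts, were 40.3% to 44.9% of all tallied alignments. The part of these shares in the difference was not tested. Over all unique alignments, those outside genes or not assigned to 1 gene included, the mitochondrial share was also lowest in shRRM2. It was 1.21% to 1.35% in controls, 1.02% to 1.06% in shRRM2 and 1.16% to 1.22% in shRRM2/shp16.

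Per kilobase of gene the messenger levels spanned more than 10-fold, in nearly the same order in each group. MT-CO3, a complex IV subunit, was highest, at 3112 ± 188 CPM per kb in controls, 2585 ± 185 in shRRM2 and 2814 ± 118 in shRRM2/shp16 (n = 3). MT-CO2, MT-ND4 and MT-CO1 followed in all 3 groups. MT-CO2 and MT-ND4 overlapped in range in controls and in shRRM2 but not in shRRM2/shp16. MT-ND6 and MT-ATP8 came last in each group. MT-ATP8 stood at 142 ± 96.5, 80.2 ± 10.9 and 97.0 ± 15.6 CPM per kb, and MT-ND6 at 228 ± 62.0, 186 ± 7.67 and 235 ± 8.69, with the SDs of both largest in controls. Both ranks lie beside limits of counting: MT-ATP8 shares bases with its neighbour, and MT-ND6 lies on the minus strand, opposite the other 12, while the labels name a stranded kit but do not say whether counting used the strand.

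**Figure D1:**
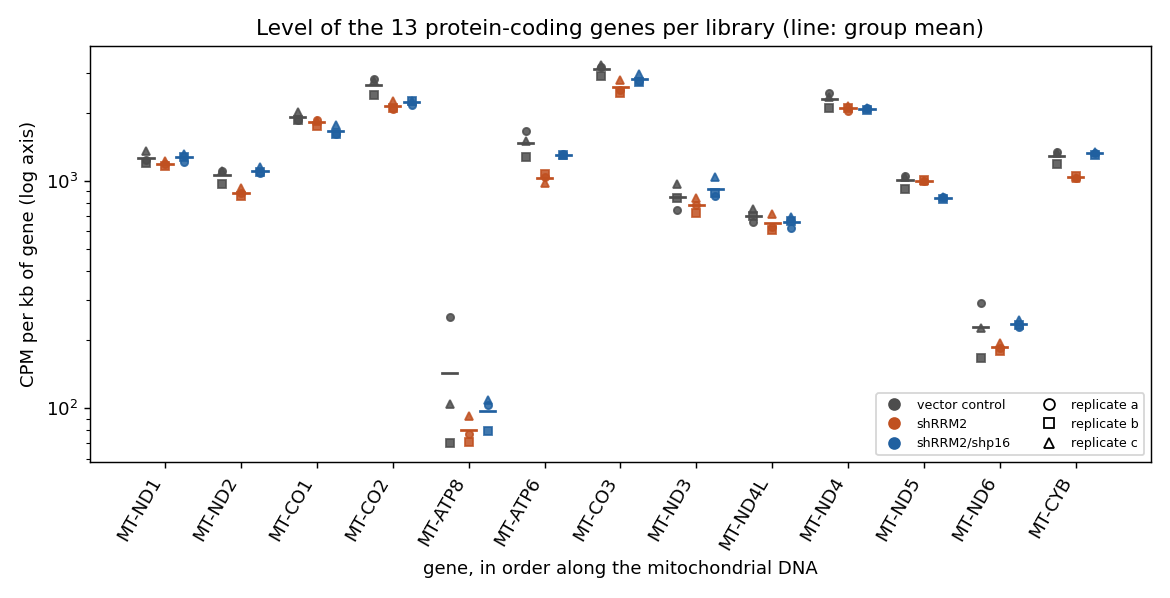
CPM per kb of gene (log axis) of the 13 protein-coding genes in order along the mitochondrial DNA, 1 point per library (circle, square and triangle for replicates a, b and c) and a line at each group mean. MT-CO3 is highest and MT-ATP8 lowest by mean in each group, and control replicate a stands above the other controls for MT-ATP8 and MT-ND6.

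In shRRM2 against the control, 11 of the 13 protein-coding genes were lower and 0 higher in edgeR's quasi-likelihood test (adjusted p under 0.05, Benjamini-Hochberg over 16561 tested genes). Of all tested genes 60.9% passed in that comparison, and 31.8% of all tested genes passed as lower genes. The log2 fold changes of the 13 ran from −0.89 (MT-ATP8) to −0.01 (MT-ND5) with a median of −0.25, beside a median of 0.00 over all tested genes. In 6 of the 13 (MT-ND2, MT-CO1, MT-CO2, MT-ATP6, MT-CO3 and MT-CYB) all shRRM2 libraries lay below all controls. Of all tested genes 63.6% were separated in this way, 32.9% as lower genes.

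For complex V, MT-ATP6 read 1128, 868 and 1021 CPM in controls a, b and c, 706, 729 and 665 in shRRM2, and 893, 886 and 888 in shRRM2/shp16. The shRRM2 libraries were lowest, with no overlap with either other group, while the shRRM2/shp16 values lay inside the control range. MT-ATP6 fell by 0.52 in shRRM2 on the log2 scale (SE 0.04, edgeR adjusted p = 5.15e-14). Its partner MT-ATP8 read 52.1, 14.6 and 21.6 CPM in controls and 16.0, 14.7 and 19.1 in shRRM2. Control a was far above every other library, and the other controls overlapped shRRM2. The fold change of MT-ATP8 was −0.89 (SE 0.21, edgeR adjusted p = 0.000303) with that library and −0.11 (edgeR adjusted p = 0.394) without it.

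MT-CYB, the only complex III subunit of the mitochondrial genome, read 1536, 1358 and 1517 CPM in controls, 1177, 1202 and 1173 in shRRM2, and 1516, 1481 and 1535 in shRRM2/shp16. The shRRM2 values were below all others, and the other groups overlapped. It fell by 0.31 in shRRM2 (SE 0.03, edgeR adjusted p = 2.19e-12). Among the 3 complex IV subunits, MT-CO2 fell by 0.30 and MT-CO3 by 0.27 (SE 0.03 each, edgeR adjusted p = 5.27e-10 and 7.86e-09). MT-CO2 read 1916, 1630 and 1887 CPM in controls, 1423, 1441 and 1546 in shRRM2, and 1479, 1538 and 1545 in shRRM2/shp16, so that both hairpin groups lay below all controls. MT-CO1, the catalytic subunit, changed less, with a log2 fold change of −0.08 (SE 0.03, edgeR adjusted p = 0.0233) that lost its call without control c (edgeR adjusted p = 0.219) or without shRRM2 b (edgeR adjusted p = 0.23).

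Of the 7 complex I subunits, 5 were lower in shRRM2 (MT-ND1, MT-ND2, MT-ND4L, MT-ND4 and MT-ND6), with a median log2 fold change of −0.11 over the 7. MT-ND2 read 1150, 1015 and 1150 CPM in controls, 920, 892 and 970 in shRRM2, and 1133, 1139 and 1200 in shRRM2/shp16. It was the only complex I gene whose shRRM2 and control libraries did not overlap, and it fell by 0.25 (SE 0.03, edgeR adjusted p = 9.84e-09). MT-ND5 read 1907, 1672 and 1894 CPM in controls and 1815, 1826 and 1809 in shRRM2, a log2 fold change of −0.01 (SE 0.03, edgeR adjusted p = 0.87) that read −0.06 and passed without control b (edgeR adjusted p = 0.0348). The shRRM2 values of MT-ND5 lay inside the control range. MT-ND3 stood at −0.11 (SE 0.06, edgeR adjusted p = 0.0741), and passed without control a or without shRRM2 c. The calls of MT-ND1 and MT-ND4L (−0.08 and −0.11) were each lost without control c, without shRRM2 a or without shRRM2 b. MT-ND6 read 152, 87.2 and 119 CPM in controls and 97.1, 93.8 and 102 in shRRM2, and its fold change of −0.31 (edgeR adjusted p = 0.00153) shrank to −0.07 (edgeR adjusted p = 0.273) without control a.

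The number of calls varied more between the fits with other tools than between edgeR fits that left out 1 library (8 to 12). The limma fits also differ in input, scaling and filter, and their shRRM2 c values do not match the counts. Tool and input can therefore not be told apart there. DESeq2 called 6 of the 13 genes in this comparison, limma on RPKM values called 2 and limma on the deposited log2 values 0, and 6 (MT-ND2, MT-CO2, MT-ATP6, MT-CO3, MT-ND4 and MT-CYB) were called by edgeR in every fit that left out 1 library. With total counts in place of TMM scaling 8 were lower and 0 higher, the fold changes of MT-ND1, MT-CO1 and MT-ND4L no longer passed, and MT-ND5 read 0.04.

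Against shRRM2, the 13 genes went both ways when p16 was also targeted: 7 were higher in shRRM2/shp16 (MT-ND1, MT-ND2, MT-ATP6, MT-CO3, MT-ND3, MT-ND6 and MT-CYB) and 2 lower (MT-CO1 and MT-ND5) by edgeR, where 61.1% of all tested genes passed, 31.9% as higher and 29.1% as lower. The median log2 fold change was 0.12, beside 0.01 over all tested genes. In 5 of them (MT-ND2, MT-ATP6, MT-ND3, MT-ND6 and MT-CYB) all shRRM2/shp16 libraries lay above all shRRM2 libraries, and in MT-ND5 all lay below. Of all tested genes 64.7% were so separated, 33.7% as higher and 31.1% as lower genes. RRM2 was itself higher in this group than in shRRM2, so the p16 hairpin and the higher RRM2 level cannot be told apart.

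The genes with the higher fold changes were MT-CYB (0.35, SE 0.03, edgeR adjusted p = 5.63e-14), MT-ATP6 (0.35, SE 0.04, edgeR adjusted p = 4.48e-09) and, after MT-ND6, MT-ND2 (0.32, SE 0.03, edgeR adjusted p = 2.32e-11). MT-ND6 rose by 0.34 (SE 0.08, edgeR adjusted p = 0.000554), from the shRRM2 values above to 119, 122 and 128 CPM. MT-ND3, a small complex I subunit, rose by 0.24 (SE 0.06, edgeR adjusted p = 0.000259), from 272, 251 and 292 CPM to 297, 306 and 359. MT-ND5 went the other way, to 1538, 1509 and 1538 CPM, below every shRRM2 and control library, a log2 fold change of −0.25 (SE 0.03, edgeR adjusted p = 1.06e-09). MT-CO1 read 2853, 2687 and 2835 CPM in shRRM2 and 2494, 2480 and 2716 in shRRM2/shp16. These MT-CO1 values overlapped between shRRM2 b and shRRM2/shp16 c, and the log2 fold change was −0.12 (SE 0.03, edgeR adjusted p = 0.000427).

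DESeq2 called 5 of the 13 in this comparison, limma on RPKM values 5 and limma on the deposited log2 values 1, and of the 9 genes 8 kept their edgeR call in every fit that left out 1 library. MT-ND1 lost it without shRRM2 b or without shRRM2/shp16 c, and MT-CO2 (0.05) gained one without shRRM2 c. With total counts in place of TMM scaling 8 were higher, now with MT-CO2, and 1 lower, since MT-CO1 at −0.06 no longer passed. The authors' deposited table, which compares these groups, marks 3 of the 13 as significant, all higher: MT-CYB (log2 fold change 0.34), MT-ND2 (0.34) and MT-ND3 (0.24). In the authors' deposited table MT-ND5 is listed at −0.10 (q = 0.489) and MT-ND6 at −0.04 (q = 0.854).

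Against the control, shRRM2/shp16 had 1 higher gene (MT-ND3, 0.12, SE 0.05, edgeR adjusted p = 0.0451) and 7 lower (MT-CO1, MT-CO2, MT-ATP8, MT-ATP6, MT-CO3, MT-ND4 and MT-ND5), where 62.4% of tested genes passed, 30.0% as higher and 32.4% as lower. The median log2 fold change was −0.14, beside 0.01 over all tested genes. In MT-CO1, MT-CO2, MT-ND4 and MT-ND5 all shRRM2/shp16 libraries lay below all controls, and 0 genes lay above. Of all tested genes 66.2% were separated, 33.8% as lower genes. MT-ND5 stood at −0.26 (SE 0.03, edgeR adjusted p = 4.6e-10), MT-CO2 at −0.25 (SE 0.03, edgeR adjusted p = 2.66e-08) and MT-CO1 at −0.20 (SE 0.03, edgeR adjusted p = 1.35e-07). MT-ND2, MT-CYB and MT-ND1 had values of 0.07, 0.04 and 0.01 and did not pass, though MT-ND2 passed in 4 of the 6 fits that left out 1 library and MT-CYB without control a. The call of MT-ATP8 (−0.62) rested on control a, without which it read 0.16 (edgeR adjusted p = 0.191), and was also lost without shRRM2/shp16 b. The call of MT-ND3 was lost without control a, without control b or without shRRM2/shp16 c, and MT-ND6, not called over all libraries (0.03), read −0.14 (edgeR adjusted p = 0.0147) without control b and 0.27 (edgeR adjusted p = 1.96e-05) without control a.

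With total counts in place of TMM scaling the median of all tested genes moved to 0.12, and 4 of the 13 genes were higher (MT-ND1, MT-ND2, MT-ND3 and MT-CYB) and 4 lower (MT-CO1, MT-CO2, MT-ATP8 and MT-ND5). DESeq2 called 4 of the 13, limma on RPKM values 1 and limma on the deposited log2 values 0. The 3 comparisons share libraries, so a low shRRM2 value of a gene appears in 2 of them.

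**Figure D2:**
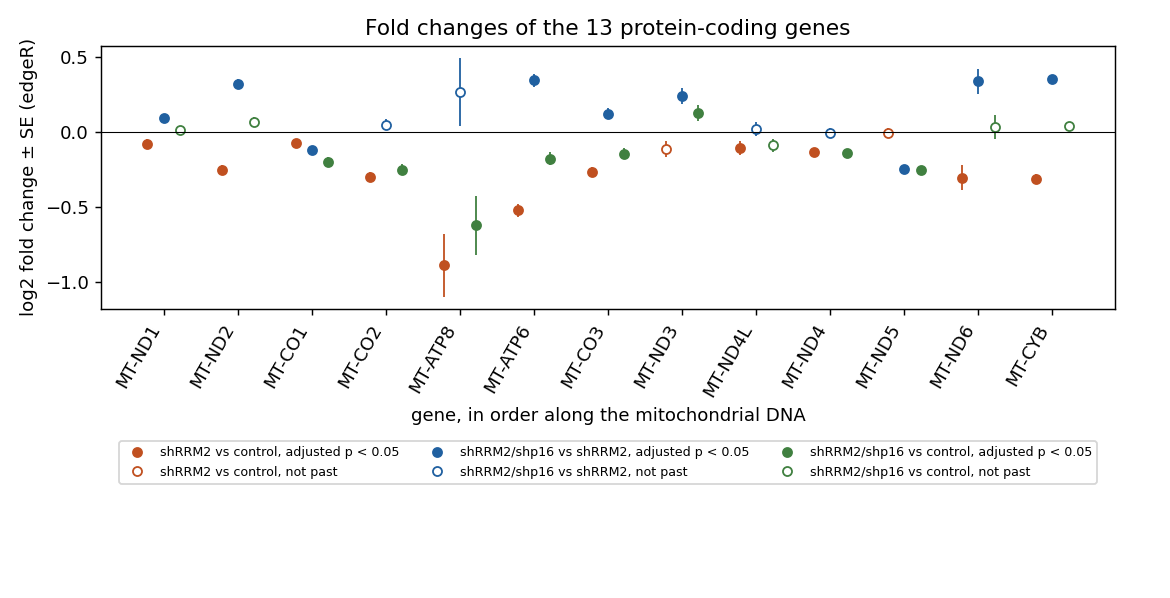
Log2 fold change ± SE (edgeR) of the 13 protein-coding genes in order along the mitochondrial DNA, for the 3 comparisons, with filled points where the adjusted p is under 0.05. MT-ND2, MT-ATP6 and MT-CYB were lower in shRRM2 against the control (−0.25, −0.52 and −0.31) and higher in shRRM2/shp16 against shRRM2 (0.32, 0.35 and 0.35), while MT-ND5 stood at −0.01 in the first and at −0.25 in the second.

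The share of each gene within the counts of the 13 does not depend on the scaling between libraries. MT-ND5 took 10.3% ± 0.116 of these counts in controls, 11.7% ± 0.325 in shRRM2 and 9.49% ± 0.206 in shRRM2/shp16 (n = 3). MT-CYB, which follows MT-ND5 and MT-ND6 along the molecule, took 8.34% ± 0.0822, 7.64% ± 0.264 and 9.38% ± 0.148. MT-ND2 took 6.27% ± 0.0489, 5.98% ± 0.121 and 7.18% ± 0.0529, and all 3 groups were separate from each other for MT-ND5, MT-CYB and MT-ND2. MT-ATP6 took 5.70% ± 0.453, 4.52% ± 0.310 and 5.52% ± 0.146, with shRRM2 below the other groups. MT-CO1 took 16.7% ± 0.908, 18.0% ± 0.50 and 15.9% ± 0.405, with shRRM2 above them. MT-CO2 took 10.3% ± 0.267 in controls and 9.47% ± 0.222 and 9.44% ± 0.226 in the hairpin groups, which overlapped each other. Each comparison of groups that did not overlap gave an exact two-sided permutation p of 0.1, the smallest possible, and 0.195 after adjustment over the 39 tests, so none passed. These 6 genes were chosen after their values were seen.

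**Figure D3:**
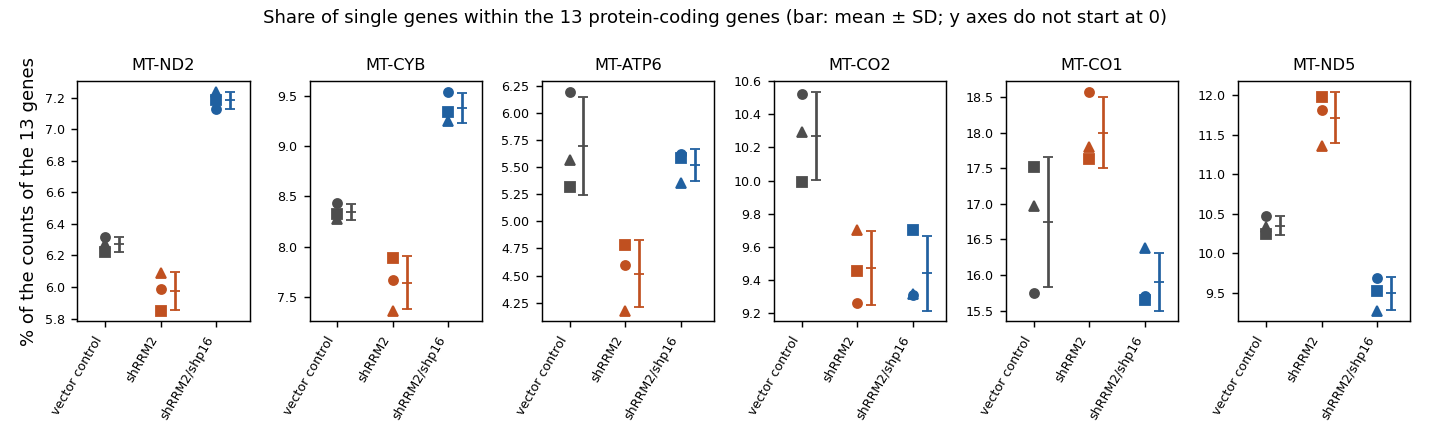
Percent of the counts of the 13 protein-coding genes taken by 6 of them, 1 point per library with the mean ± SD of each group (n = 3) beside it, and y axes that do not start at 0. MT-ND2 and MT-CYB were lowest in shRRM2 and highest in shRRM2/shp16, and MT-ND5 highest in shRRM2 (11.7%) and lowest in shRRM2/shp16 (9.49%).

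MT-ND6 is the only protein-coding gene read from the opposite strand, and its ratio to the other 12 is given apart. Whether reads of the other strand are among its counts is not known, because the strand setting of the counting is not given. For every 1000 counts of the 12 it had 8.44, 5.37 and 6.52 counts in controls, 6.36, 6.19 and 6.43 in shRRM2, and 7.57, 7.76 and 7.79 in shRRM2/shp16. The shRRM2/shp16 libraries lay above all shRRM2 libraries, by 0.28 on the log2 scale (exact p = 0.1, adjusted 0.24), and inside the wide control range (0.21, exact p = 0.4). The shRRM2 and control libraries differed by −0.07 (exact p = 0.7), and by 0.10 (exact p = 0.8) without control a, the library with the highest ratio.

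The rRNA genes MT-RNR1 and MT-RNR2, which encode the RNAs of the small and large mitochondrial ribosome subunits, had few counts after depletion. MT-RNR1 (chrM:648-1601) had 55, 59 and 17 counts in controls, 12, 48 and 5 in shRRM2, and 14, 19 and 104 in shRRM2/shp16. MT-RNR2 (chrM:1671-3229) had 62, 71 and 19, then 8, 57 and 12, then 18, 15 and 159. The groups overlapped in every comparison of either gene, and the same libraries were high for both genes: controls a and b, shRRM2 b and shRRM2/shp16 c. Neither gene passed edgeR in any comparison (0 of 2 in each), and at an unadjusted p under 0.05 the counts were 0, 1 and 0, for shRRM2 against control, shRRM2/shp16 against shRRM2 and shRRM2/shp16 against control. DESeq2 and limma on RPKM values also called 0 of 2 in each.

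The fold changes of the rRNA genes in shRRM2 against control were −0.79 (MT-RNR1, SE 0.48, edgeR adjusted p = 0.154) and −0.77 (MT-RNR2, SE 0.54, edgeR adjusted p = 0.217). In shRRM2/shp16 against shRRM2 they were 0.89 (SE 0.48, edgeR adjusted p = 0.105) and 1.14 (SE 0.51, edgeR adjusted p = 0.0524). Single libraries decided the sign: without shRRM2/shp16 c the values against control were −1.38 (MT-RNR1, edgeR adjusted p = 0.00527) and −1.60 (MT-RNR2, edgeR adjusted p = 0.00152), in place of 0.10 and 0.37 with it. Without shRRM2 b both genes passed in shRRM2 against control, at −2.10 and −2.09. Both also passed in shRRM2/shp16 against shRRM2 without shRRM2 b, without shRRM2/shp16 a or without shRRM2/shp16 b. Without shRRM2/shp16 c the values of that comparison turned to −0.60 (MT-RNR1, edgeR adjusted p = 0.307) and −0.84 (MT-RNR2, edgeR adjusted p = 0.144). In the authors' deposited table both are significantly higher in shRRM2/shp16 than in shRRM2, at log2 fold changes of 0.81 (MT-RNR1) and 1.20 (MT-RNR2).

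The 22 tRNA genes, each between 59 and 75 bases long, summed to 372, 250 and 231 counts in controls, 194, 219 and 196 in shRRM2, and 302, 290 and 293 in shRRM2/shp16. Per 1000 messenger counts the tRNA genes had 0.751 to 0.856 in controls, 0.706 to 0.829 in shRRM2 and 0.911 to 1.004 in shRRM2/shp16. The last group lay above both others, by 0.30 against shRRM2 and 0.22 against control on the log2 scale (exact p = 0.1 and adjusted p = 0.24 for each).

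Counts varied from 0 to 490 between tRNA genes over all 9 libraries together. MT-TV, MT-TL1 and MT-TR, the genes of the tRNAs for valine, leucine and arginine, had 0 counts in every library. By counting error alone this allows up to 0.121 to 0.190 CPM per library (3 counts) of reads that could be counted to them. The counting mode is not given, and a read that also covers a neighbour may not be counted to them, so their level is not bounded. MT-TT, MT-TA and MT-TP, for threonine, alanine and proline, had the most, with 490, 357 and 295 counts. The 3 empty genes each lie between genes of the same strand within 2 bases on both sides. In all, 7 of the 22 lie so, and they held 110 counts with a median of 8, while the other 15 held 2237 with a median of 103. The positions and the counts are given as a description, since neighbouring genes also share reads. The 6 genes are printed because they mark the ends of this range, from the GENCODE release 29 transcripts on GRCh38, 5′ to 3′ on the gene's own strand. They lie at chrM:1602-1670, chrM:3230-3304, chrM:10405-10469 and chrM:15888-15953 on the plus strand, and at chrM:5587-5655 and chrM:15956-16023 on the minus strand.
MT-TV: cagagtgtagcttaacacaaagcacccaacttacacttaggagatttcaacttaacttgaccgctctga
MT-TL1: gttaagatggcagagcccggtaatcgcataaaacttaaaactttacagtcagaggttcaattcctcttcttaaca
MT-TR: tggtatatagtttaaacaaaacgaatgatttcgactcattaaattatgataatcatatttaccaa
MT-TT: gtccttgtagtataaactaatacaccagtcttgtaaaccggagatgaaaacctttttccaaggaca
MT-TA: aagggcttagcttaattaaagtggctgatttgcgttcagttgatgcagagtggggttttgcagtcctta
MT-TP: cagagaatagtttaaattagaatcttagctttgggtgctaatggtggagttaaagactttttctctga

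Only 10 of the 22 tRNA genes had enough counts to be tested. In shRRM2 against control 2 were lower and 0 higher by edgeR: MT-TI, for isoleucine (−0.79, SE 0.35, adjusted p = 0.0479), and MT-TA (−0.51, SE 0.22, adjusted p = 0.0398). Over all tested genes 60.9% passed there, 31.8% as lower, against 2 of these 10. MT-TI had 36, 15 and 20 counts in controls and 14, 17 and 4 in shRRM2, which overlapped. MT-TA had 62, 35 and 34 counts in controls, 25, 25 and 29 in shRRM2, and 54, 44 and 49 in shRRM2/shp16, with shRRM2 below both others. DESeq2 and limma on RPKM values called neither gene in that comparison, and neither kept its edgeR call without control a (adjusted p = 0.262 for MT-TI and 0.252 for MT-TA). MT-TI also lost it without control c or shRRM2 c, and MT-TA without any 1 of the shRRM2 libraries.

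In shRRM2/shp16 against shRRM2, 3 tRNA genes were higher and 0 lower: MT-TM, for methionine (0.84, SE 0.30, edgeR adjusted p = 0.0146), MT-TA (0.70, SE 0.21, edgeR adjusted p = 0.0038) and MT-TP (0.69, SE 0.23, edgeR adjusted p = 0.00986). The share of higher genes over all tested genes was 31.9%, so 3 of 10 was near the background in that direction. For lower genes the share was 29.1%, against 0 of 10, and in either direction 61.1%, against 3 of 10. The background was not matched to the low counts of these genes. MT-TM had 14, 12 and 13 counts in controls, 7, 15 and 17 in shRRM2, and 26, 34 and 20 in shRRM2/shp16, above all other libraries. MT-TP had 36, 37 and 34 counts, then 24, 20 and 22, then 48, 35 and 39. In CPM its shRRM2 libraries lay below all shRRM2/shp16 libraries and overlapped the controls. DESeq2 called 1 of these 3 (MT-TA) and limma on RPKM values all 3. Only MT-TA kept its edgeR call without any 1 library; MT-TM lost it without shRRM2 a or shRRM2/shp16 b, and MT-TP without shRRM2/shp16 a. Against control 1 tRNA gene was higher in shRRM2/shp16, MT-TM (1.05, SE 0.30, edgeR adjusted p = 0.00241), a call that DESeq2 and limma on RPKM values also made. The authors' deposited table marks 6 of the 22 tRNA genes as significant in shRRM2/shp16 against shRRM2, 3 higher and 3 lower. In the authors' deposited table MT-TL1, with 0 counts in all 9 libraries, is listed as 0.88 higher (q = 0.0239).

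**Figure D4:**
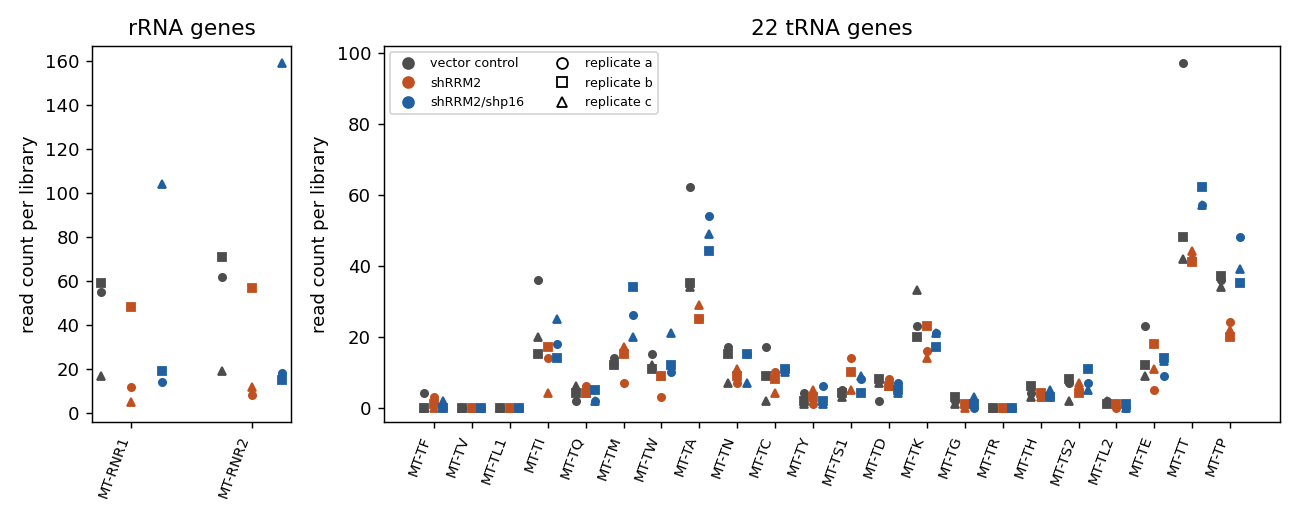
Read counts per library of the 2 rRNA genes and the 22 tRNA genes, in order along the mitochondrial DNA, 1 point per library. The rRNA counts of shRRM2/shp16 replicate c (104 and 159) stand above all other libraries, and MT-TV, MT-TL1 and MT-TR are at 0 throughout.

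Nuclear genes that copy, transcribe and process the mitochondrial genome, or supply its nucleotides, were taken from 3 lists. The lists held 68 genes, of which 67 were tested, and are not limited to genes that act only in mitochondria. In shRRM2 against control 42 passed edgeR, 5 higher and 37 lower, with a median log2 fold change of −0.23 (60.9% of all tested genes passed, 31.8% as lower). In shRRM2/shp16 against shRRM2, 47 passed, 32 higher and 15 lower, with a median of 0.17 (61.1% of all tested genes passed, 31.9% as higher and 29.1% as lower). In shRRM2/shp16 against control, 46 passed, 15 higher and 31 lower, with a median of −0.05 (62.4% of all, 30.0% as higher and 32.4% as lower). The lists were read by count and median, and a set test was not run.

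Of the 9 transcription genes, 0 were higher and 4 lower in shRRM2 against control, where 60.9% of all tested genes passed, 31.8% as lower. In shRRM2/shp16 against shRRM2, 6 were higher and 0 lower, where 61.1% of all tested genes passed, 31.9% as higher and 29.1% as lower. TFAM, which packages mitochondrial DNA and starts its transcription, read 29.3, 32.2 and 33.3 CPM in controls, 20.1, 18.7 and 19.2 in shRRM2, and 30.4, 33.5 and 35.0 in shRRM2/shp16. The shRRM2 libraries lay below all others and the remaining groups overlapped. TFAM fell by 0.70 in shRRM2 (SE 0.07, edgeR adjusted p = 4.43e-12) and rose by 0.77 in shRRM2/shp16 against shRRM2 (SE 0.07, edgeR adjusted p = 2e-13). POLRMT, the mitochondrial RNA polymerase, had log2 fold changes of −0.36 and 0.35 in the same comparisons (SE 0.07 each, edgeR adjusted p = 3.41e-05 and 5.46e-05), and −0.01 for shRRM2/shp16 against control.

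Of the 24 genes of mitochondrial DNA replication and nucleotide supply, 5 were higher and 13 lower in shRRM2 against control, where 60.9% of all tested genes were called, 31.8% as lower. RRM2B, the reductase subunit named above, read 36.4, 42.7 and 41.3 CPM in controls, 91.7, 83.5 and 90.9 in shRRM2, and 64.8, 69.96 and 65.3 in shRRM2/shp16. All 3 groups were separate, and RRM2B rose by 1.15 in shRRM2 (SE 0.05, edgeR adjusted p = 2.87e-23) and fell by 0.41 in shRRM2/shp16 against shRRM2 (SE 0.05, edgeR adjusted p = 4.83e-10). TK2, the mitochondrial thymidine kinase, was 0.35 higher in shRRM2, ABAT, which takes part in mitochondrial nucleoside metabolism, 0.65 higher and SLC25A36, a pyrimidine nucleotide carrier, 0.27 higher. DGUOK, the mitochondrial deoxyguanosine kinase, stood at 0.04 (edgeR adjusted p = 0.548). DUT, which removes dUTP, fell by 1.01 and PRIMPOL, a primase-polymerase, by 0.78.

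TWNK, the mitochondrial replicative helicase (C10orf2 in the tables), fell by 0.51 in shRRM2 and rose by 0.87 in shRRM2/shp16 against shRRM2 (SE 0.09 and 0.08, edgeR adjusted p = 2.31e-06 and 2.47e-12). POLG, the catalytic subunit of the mitochondrial DNA polymerase, stood at −0.10 in shRRM2 against control (edgeR adjusted p = 0.0525, passing without control b, control c or shRRM2 c) and fell by 0.26 in shRRM2/shp16 against shRRM2. TYMP, thymidine phosphorylase, was 0.75 higher in shRRM2/shp16 than in shRRM2, and the nuclease EXOG stood at −0.37. ABAT stood at −0.48 in the same comparison. In the replication list 8 genes were higher and 12 lower there, beside 31.9% and 29.1% of all tested genes.

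Of the 35 genes of mitochondrial RNA processing and stability, 34 were tested, 0 were higher and 20 lower in shRRM2 against control, and 18 were higher and 3 lower in shRRM2/shp16 against shRRM2. The shares of all tested genes called in either direction were 60.9% and 61.1%, so the number called in either direction was near the background in both. The split by direction was not near it. In the first comparison 31.8% of all tested genes passed as lower, against 20 of these 34. In the second 31.9% passed as higher and 29.1% as lower, against 18 and 3 of the 34. In shRRM2/shp16 against control 5 of the 34 were higher and 17 lower, beside 30.0% and 32.4% of all tested genes. PNPT1, an exoribonuclease, fell by 0.59 and rose by 0.39 in the first 2 comparisons, and stood at −0.19 in the last (edgeR adjusted p = 0.00418). SLIRP, which binds messenger RNAs with LRPPRC, fell by 0.43, rose by 0.24 and stood at −0.20 (edgeR adjusted p = 0.00199). LRPPRC itself stood at −0.01 in shRRM2 against control (edgeR adjusted p = 0.799) and at −0.12 in shRRM2/shp16 against shRRM2, a call (edgeR adjusted p = 0.00632) that was lost without shRRM2 a (edgeR adjusted p = 0.0948) or without shRRM2/shp16 c (edgeR adjusted p = 0.0666). RNMTL1, a ribosomal RNA methyltransferase now named MRM3, fell by 0.72 in shRRM2. DDX28, an RNA helicase of mitochondrial ribosome assembly, was 0.58 higher and REXO2, an oligoribonuclease, stood at −0.50 in shRRM2/shp16 against shRRM2.

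**Figure D5:**
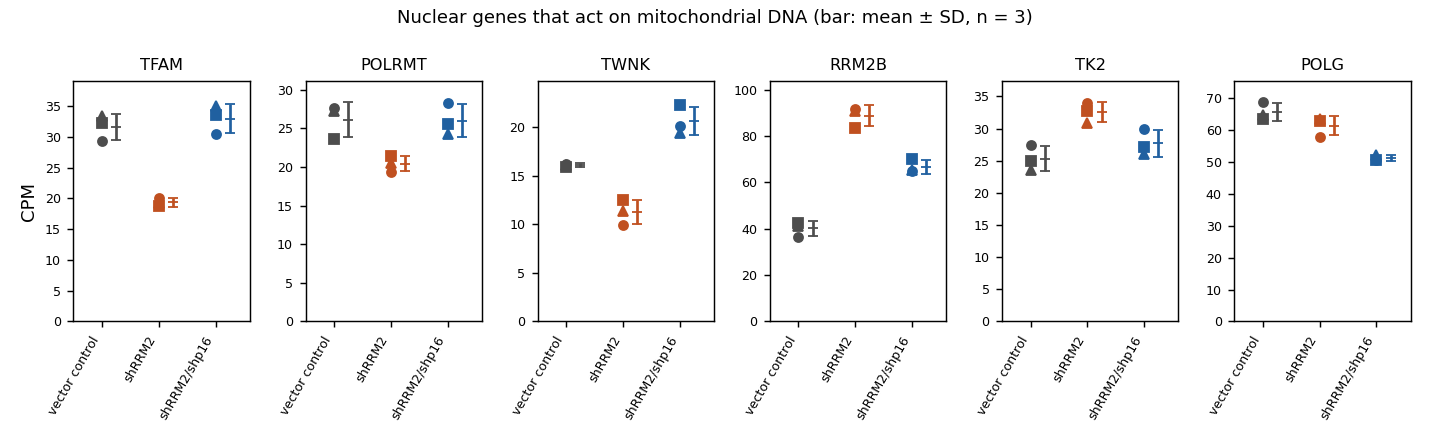
CPM of 6 nuclear genes that act on mitochondrial DNA or supply its nucleotides, 1 point per library with the mean ± SD of each group (n = 3), axes from 0. TFAM, POLRMT and TWNK were lowest in shRRM2, RRM2B and TK2 were highest there, and POLG was lowest in shRRM2/shp16.

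The nuclear genome holds copies of mitochondrial genes, and reads can be shared with them. Of 196 such copies listed, 145 had no count in any library and 7 were tested. MTND2P28, a copy of MT-ND2, read −0.42 for shRRM2 against control and 0.25 when p16 was also targeted, beside −0.25 and 0.32 for MT-ND2. MTATP6P1 had −0.51 and 0.32, beside −0.52 and 0.35 for MT-ATP6, and MTND4P12 had 0.03 and −0.17, beside −0.14 and −0.01 for MT-ND4. These 3 copies had the most counts, and each of the other 4 had at most 35 in any library. Of those, MTND5P2 had 4, 4 and 3 counts in controls and 12, 10 and 12 in shRRM2, and passed at 1.80 (SE 0.48, edgeR adjusted p = 0.00127), beside −0.01 for MT-ND5. In controls MTND2P28 averaged 26.3 CPM beside 1105 for MT-ND2, MTATP6P1 17.8 beside 1006 for MT-ATP6, and MTND4P12 82.2 beside 3161 for MT-ND4. A copy without counts can still share reads, because non-unique alignments were tallied apart from the gene counts. Which reads came from which genome was not tested. The values of MT-ND2, MT-ATP6, MT-ND4 and any other mitochondrial gene with nuclear copies are uncertain to that extent.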

How the data were processed

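RNA was extracted with Trizol and sequenced from ribosome-depleted stranded libraries, per the labels' protocols. The authors deposited whole-number HTSeq counts per gene for each library, and 1 table with log2 RPKM values and their own fold changes, p-values and q-values for shRRM2/shp16 against shRRM2. The deposited test statistic, a score per gene, was not used. Per the submitters' processing notes TopHat2 2.0.9, Cufflinks 2.0.2 and Cuffdiff were used with GRCh38. The annotation release, counting mode and strand setting are not given in the sources used here. The deposited log2 RPKM values equal log2(RPKM/1000 + 1) of the counts in 8 of 9 columns and not in shRRM2 c. This compresses changes, most in low genes, because the added 1 stands for 1000 RPKM. It also compresses those of the 13 protein-coding genes, whose group means ran from 80.2 to 3112 CPM per kb.

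Counts were tested with edgeR 4.0.16 (R 4.3.3), TMM scaling, filterByExpr and the quasi-likelihood test, with all 9 libraries in 1 fit (16561 genes, 99.8% of counts, threshold 0.05). CPM are TMM-scaled. Ratios were tested by exact permutation over libraries. DESeq2 1.42.0 and limma 3.58.1 on log2(RPKM + 0.1) and on the deposited log2 values were alternatives, with other scalings, filters, a replicate block and leaving out each library. The scripts were tested on simulated data. The rule for named genes took all 37 mitochondrial genes, 8 set genes from the nuclear lists, and the 4 highest and 4 lowest called genes without overlap in the first 2 comparisons; TFAM, RRM2B, TK2, TWNK and ABAT fall under more than 1 part of it, and SLIRP and PNPT1 were chosen after their values were seen. The members and the lists were chosen with earlier results of these data known. A further list of cell type markers is not reported here.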

Additional observations from a re-analysis of the deposited data

How the results depend on the processing

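For the protein-coding genes, counts of calls in the order shRRM2 against control, shRRM2/shp16 against shRRM2 and shRRM2/shp16 against control were 11, 9 and 8 by edgeR, 6, 5 and 4 by DESeq2, 2, 5 and 1 by limma on RPKM, 0, 1 and 0 by limma on the deposited log2 values, and 0, 0 and 0 by that test without a filter or with the matching columns only. Median log2 fold changes in limma on the deposited values were −0.079 (−0.073 with matching columns), 0.068 and −0.027, with the same −0.079, 0.068 and −0.027 unfiltered and −0.027 with matching columns, and on RPKM −0.17 in the first and −0.038 in the last comparison. The deposited scale compresses changes by construction, most in low genes but also in these genes. Without TMM factors the medians were 0.18 in shRRM2/shp16 against shRRM2 and −0.04 against control. Leaving out 1 library gave medians of −0.31 to −0.16, 0.085 to 0.18 and −0.19 to −0.081, farthest from the value over all libraries without control a in the first comparison and without shRRM2 c in the second.

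The number of tRNA calls in shRRM2 against control, 2 by edgeR, was 1 with RLE factors, 1 at a minimum of 10 counts in every library, 1 with only the 6 libraries compared, 1 by limma on the deposited values, on the matching columns and on RPKM (neither of the edgeR genes), 0 without TMM factors, 0 by DESeq2 and 0 by unfiltered limma, and 1 to 3 leaving out 1 library. The 3 in shRRM2/shp16 against shRRM2 became 1 by DESeq2, and the 1 against control became 0 at a minimum of 10 counts. That minimum left 4 tRNA genes tested, and took MT-TM (lowest count 7) and MT-TI (lowest count 4) out of the test. The 0 rRNA calls became 2 without a filter in the first and in the second comparison, and 1 in the second without TMM factors and with only the 6 libraries compared. They ran from 0 to 2 in each comparison leaving out 1 library. The 47 nuclear list calls in shRRM2/shp16 against shRRM2 became 29 in unfiltered limma.

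The log2 ratio of rRNA to messenger counts ran from −0.24 (without shRRM2/shp16 c) to 1.58 in shRRM2/shp16 against shRRM2, and from −1.18 to 0.32 against control, where it was 0.32 without shRRM2/shp16 a, 0.32 without shRRM2/shp16 b and 0.26 without control b. The MT-ND6 ratio ran from −0.23 to 0.10 in shRRM2 against control (0.10 without control a). The mitochondrial share against control ran from −0.074 to 0.0056 (without control c). In shRRM2/shp16 against control, leaving out 1 library, MT-RNR1 ran from −1.38 to 0.53 and MT-RNR2 from −1.60 to 0.87, both lowest without shRRM2/shp16 c, MT-ATP8 from −0.93 to 0.16 (without control a) and MT-ND6 from −0.14 (without control b) to 0.27. Except where stated, the cause was not tested.

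Libraries with the same letter did not deviate together over all tested genes (r from −0.03 to 0.07, none over 0.1), so no pairing by letter was seen. A weak pairing, or one limited to few genes, could be missed in this way. With the letter as a replicate block, calls were 12, 9 and 10 for the protein-coding genes, 1 tRNA gene in shRRM2 against control and 1 rRNA gene in shRRM2/shp16 against shRRM2. Of the single-gene values under these alternatives, 1503 stayed on the same side of the threshold, called or not, 54 gained a call and 195 lost one, and 4 called values changed sign. Among values called under neither setting, 103 changed sign. Low counts limit the rRNA and tRNA genes.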
